A study of Mus musculus with 231 samples.

Results

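The comparison described here is CM against Ctrl in peripheral blood mononuclear cells (PBMC) at month 2 of the training cohort. It comprised 13 small RNA libraries, 1 per mouse, from 6 CM and 7 Ctrl mice, out of 231 libraries in the whole series, and was chosen by the month given in the sample names. CM mice were C57BL/6 conditional knock-in mice of genotype Cbfb56M/+/Mx1-Cre, and carried the genotype label CHW. Both groups had received poly(I:C) at 6 to 8 weeks of age, 14 mg/kg per dose every other day for 7 doses, and blood was sampled monthly from month 0. Ctrl mice were age-matched littermates given the same injections, and carried the genotype labels CW (4 mice), HW (2 mice) and WT (1 mouse), which are not explained. The labels describe them as lacking the transgene, whereas the methods of the study describe littermates with the Cbfb56M allele and no Cre. Mx1-Cre is switched on by interferon, which poly(I:C) provokes, and it acts in blood-forming cells but also in other tissues. Libraries had been assigned to randomized preparation batches.

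CM is the fusion protein Cbfb-MYH11, made in a subset of acute myeloid leukemia in which a chromosome inversion joins the CBFB and MYH11 genes. It disturbs the RUNX1 transcription factor complex, which blood-forming cells need to mature, and mice expressing it pass through a preleukemic phase before leukemia appears. Mature microRNAs are short RNAs that are cut as a 5p or a 3p arm from a hairpin precursor and lower the output of target messenger RNAs, mainly by pairing through their seed. PBMC are a mixture of lymphocytes, monocytes and rarer cells, each rich in particular miRNAs, and fewer cells of a type cannot be told apart from less RNA per cell in such bulk samples.

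The sequences of miRNAs on which the results turn are given here so that shared seeds can be seen. They are mature sequences from RefSeq (GRCm38.p6), 5′ to 3′, with the seed (bases 2 to 8) in capitals. The first 7 belonged to miRNAs with higher counts in CM mice or to relatives with the same seed.
miR-126a-3p: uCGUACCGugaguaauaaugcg
miR-196b-5p: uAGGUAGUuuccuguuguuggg
miR-99a-5p: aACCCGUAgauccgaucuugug
miR-148a-3p: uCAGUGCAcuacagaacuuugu
miR-148b-3p: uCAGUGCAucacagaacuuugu
miR-152-3p: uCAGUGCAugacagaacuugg
miR-322-5p: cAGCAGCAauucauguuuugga

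The next 7 belonged to miRNAs with lower counts in CM mice, or, for miR-501-3p, to a neighbor that shares the seed of miR-500-3p.
miR-142a-3p: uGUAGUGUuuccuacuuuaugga
miR-34a-5p: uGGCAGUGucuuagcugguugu
miR-500-3p: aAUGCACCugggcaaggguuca
miR-501-3p: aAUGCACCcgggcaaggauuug
miR-362-5p: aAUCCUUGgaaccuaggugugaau
miR-5121: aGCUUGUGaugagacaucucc
miR-210-3p: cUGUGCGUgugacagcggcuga

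A final pair, miR-181a-5p and miR-181d-5p, share a seed and are shown because only miR-181d-5p kept its direction between the deposited tables.
miR-181a-5p: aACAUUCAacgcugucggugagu
miR-181d-5p: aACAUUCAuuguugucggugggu

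The 12 libraries other than that of Ctrl mouse 3349 held 3844708 to 5721460 counts assigned to mature miRNAs, and that of mouse 3349 held 1792809. The same mouse had 4862832 counts at month 0, 4659036 at month 1 and 4437464 at month 3. Its month 2 library was the highest or the lowest of all 13 at 54.7% of the 481 tested miRNAs, compared with 5.41% to 22.2% for each of the others, and its log2 profile correlated with the others at r = 0.906 to 0.928, where other pairs reached 0.957 to 0.987. The values below include this library unless stated, and values without it are added where a call or its size depended on it. The lymphocyte miRNA miR-150-5p, at 17776 to 77790.4 CPM (counts per 1000000), and the myeloid miRNA miR-223-3p, at 1449 to 12481 CPM, were present in all 13 libraries, and so was the red cell miRNA miR-451a, at 6658 to 23075 CPM.

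To find which miRNAs differed between CM and Ctrl mice at month 2, the 481 of 1863 miRNAs that passed a filter on low counts entered a quasi-likelihood F test in edgeR. At a Benjamini-Hochberg adjusted p under 0.05, 65 miRNAs were called (13.5% of those tested), and 152 (31.6%) had an unadjusted p under 0.05. Of these, 37 were higher in CM mice (7.69%) and 28 were lower (5.82%), and the median log2 fold change was 1.00 among the former and -1.01 among the latter, compared with -0.02 over all 481. The groups did not overlap at 31 miRNAs (6.44%), with CM mice above at 15 (3.12%) and below at 16 (3.33%), and 29 of these were among the 65 calls. Without Ctrl mouse 3349 they did not overlap at 50 (10.4%), with CM mice above at 26 (5.41%) and below at 24 (4.99%). In fits that left out each mouse in turn, 35 calls held in all 13 fits, 20 of them higher and 15 lower. Without Ctrl mouse 3349 the test called 26.6% of 478 miRNAs, 66 higher (13.8%) and 61 lower (12.8%), and these were all 65 of the calls with it and 62 more.

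**Figure D1:**
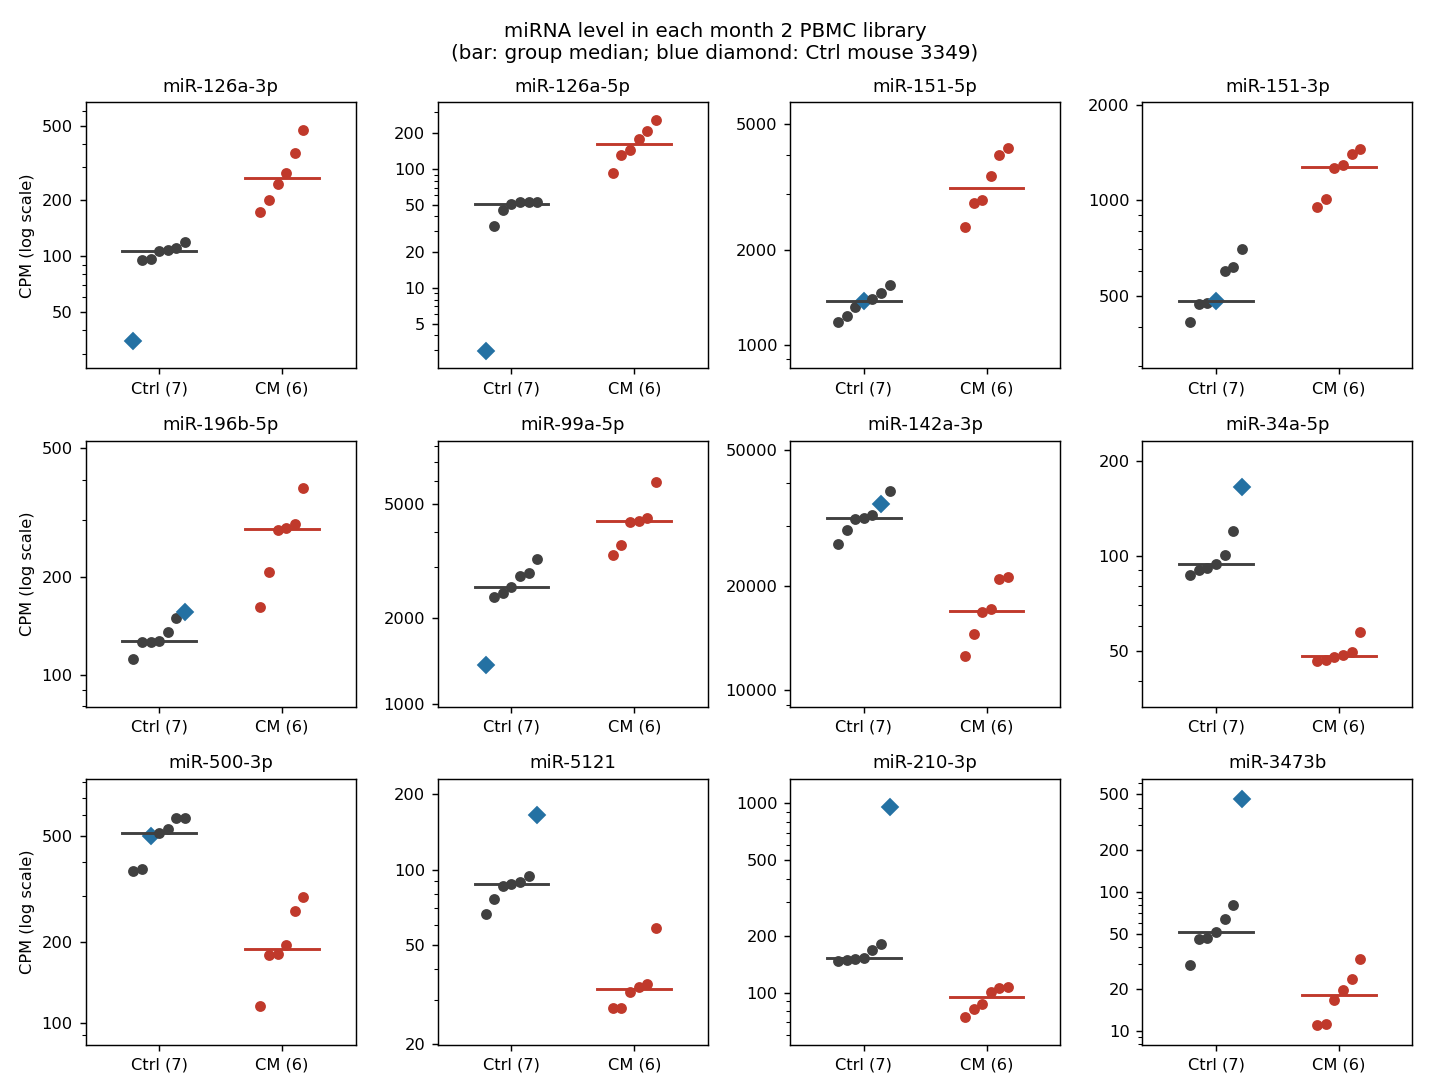
Level of 12 miRNAs in each month 2 library, in CPM on a log axis that differs between panels; points are mice, bars are group medians, and the blue diamond is Ctrl mouse 3349. At miR-126a, miR-151, miR-196b-5p and miR-99a-5p every CM mouse lay above every Ctrl mouse, at miR-142a-3p, miR-34a-5p, miR-500-3p, miR-5121 and miR-210-3p every CM mouse lay below, and at miR-3473b the groups overlapped.

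MiR-126a is known from endothelium and from blood stem cells, where it restrains cell cycle entry, and its hairpin lies on chromosome 2 at 26591357 to 26591429 (GRCm38.p6, plus strand). MiR-126a-3p ranged from 171 to 476 CPM with a median of 261 in CM mice, and from 35.0 to 119.6 with a median of 106.5 in Ctrl mice. The lowest Ctrl value was that of mouse 3349, and the next was 95.8 CPM. The groups did not overlap, and the log2 fold change was 1.58 ± 0.29 (SE; edgeR adjusted p = 0.00352) with mouse 3349 and 1.44 ± 0.22 (adjusted p = 0.00162) without it.
MiR-126a-5p, the other arm of this hairpin, ranged from 92.2 to 260.1 CPM (median 162) in CM mice and from 2.95 to 52.8 CPM (median 51.3) in Ctrl mice. Here too mouse 3349 had the lowest level, the next Ctrl value was 33.5 CPM, and every CM mouse exceeded every Ctrl mouse. The log2 fold change was 2.02 ± 0.44 (edgeR adjusted p = 0.0107), and 1.81 ± 0.23 (adjusted p = 0.000493) without mouse 3349. Both arms kept their call in each of the 13 fits that left out a mouse.

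The smallest adjusted p-values belonged to the arms of miR-151, which is encoded in an intron of the focal adhesion kinase gene Ptk2. MiR-151-5p ranged from 2358 to 4189 CPM (median 3143) in CM mice and from 1179 to 1551 CPM (median 1374) in Ctrl mice. Mouse 3349 sat at the Ctrl median and the groups did not overlap (log2 fold change 1.27 ± 0.15, edgeR adjusted p = 0.000384). MiR-151-3p likewise ranged from 953 to 1452 CPM in CM mice and from 413 to 700.5 CPM in Ctrl mice without overlap (log2 fold change 1.19 ± 0.16, edgeR adjusted p = 0.000665).

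Among 14 tested miRNAs of stem and progenitor cells, 2 were called higher, where 7.69% of all tested miRNAs were, and none lower, with a list median of 0.28 on the log2 scale. Without mouse 3349 there were 3 higher and 1 lower, with miR-125b-2-3p (0.51, edgeR adjusted p = 0.0392) and let-7e-5p (-0.89, adjusted p = 0.0071) added. MiR-196b-5p, encoded among the HoxA genes, ranged from 162 to 377 CPM (median 281) in CM mice and from 111.7 to 156 CPM (median 126.9) in Ctrl mice, without overlap (log2 fold change 1.00 ± 0.18, edgeR adjusted p = 0.00352). MiR-99a-5p, which is enriched in blood stem cells, ranged from 3313 to 5946 CPM (median 4343) against 1365 to 3195 CPM (median 2557), also without overlap (log2 fold change 0.79 ± 0.19, edgeR adjusted p = 0.0171). It differs from miR-100-5p by few bases, and reads of the pair may be hard to separate. MiR-125b-5p, with 1.46 on the same scale (edgeR adjusted p = 0.139), and miR-130a-3p, with 0.55 (adjusted p = 0.0662), did not pass. Both passed in reads recovered from the authors' CPM table, described below. There miR-125b-5p was at 0.53 ± 0.17 (edgeR adjusted p = 0.0400) and miR-130a-3p at 0.55 ± 0.17 (adjusted p = 0.0396). Let-7e-5p passed there in the other direction (-0.76 ± 0.23, adjusted p = 0.0307). The size of the miR-125b-5p difference is thus uncertain.

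In red cells miR-144, miR-451a and miR-486 are abundant and support terminal maturation. Of 7 tested members, 4 were called higher (7.69% of all tested miRNAs were), none lower, all 7 had a positive log2 fold change, and the list median was 1.12. MiR-144-5p ranged from 782 to 3053 CPM (median 2384) in CM mice and from 389 to 1567 CPM (median 835) in Ctrl mice, with overlap (log2 fold change 1.23 ± 0.33, edgeR adjusted p = 0.0228). The other calls were miR-486a-3p (1.79 ± 0.32), miR-486b-3p (1.50 ± 0.35) and miR-486a-5p (1.12 ± 0.30). With sex as a covariate miR-144-5p (1.09, edgeR adjusted p = 0.0869) and miR-486a-5p (0.88, adjusted p = 0.0675) were no longer called.
The miR-486a and miR-486b arms are nearly identical, so their counts are uncertain as separate miRNAs. In reads recovered from the authors' CPM table, described below, miR-486a-3p (0.89 ± 0.29) and miR-486b-3p (0.88 ± 0.29) differed less, both at an edgeR adjusted p of 0.0455. There miR-486a-5p and miR-486b-5p had the same values (0.92 ± 0.31, edgeR adjusted p = 0.0455). The 4 calls of 7 members may thus count the same reads more than once, and their share is uncertain. The most abundant member, miR-451a, ranged from 8005 to 23075 CPM (median 15336) in CM mice and from 6658 to 15172 CPM (median 11288) in Ctrl mice, and differed by 0.52 ± 0.26 on the log2 scale (edgeR adjusted p = 0.17). Summed over the list, the level was 14029 to 49962 CPM in CM mice and 14109.8 to 27535 CPM in Ctrl mice, and the groups overlapped. The part of residual red cells in these values was not tested.

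MiR-148a-3p and miR-148b-3p, which share the seed CAGUGCA, were both higher in CM mice. MiR-148a-3p ranged from 3862 to 7059 CPM (median 5197) against 1470.3 to 3879 CPM (median 3008) in Ctrl mice (log2 fold change 0.95 ± 0.21, edgeR adjusted p = 0.0107). MiR-148b-3p ranged from 3762 to 5816 CPM (median 4886) against 1226 to 3774 CPM (median 2862), higher by 0.82 ± 0.22 on the log2 scale (edgeR adjusted p = 0.0226). In each case the ranges overlapped at their edges, by the lowest CM and the highest Ctrl mouse. The third member with this seed, miR-152-3p, differed by 0.30 ± 0.16 (edgeR adjusted p = 0.204). Of 42 seeds shared by 2 or more tested miRNAs with a RefSeq sequence, 11 held a call, and CAGUGCA was the single one with more than 1 call.

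MiR-322, the mouse counterpart of human miR-424 and a member of the miR-15 and miR-16 seed family, was higher in both arms. MiR-322-3p ranged from 179 to 319 CPM in CM mice and from 62.8 to 157 CPM in Ctrl mice without overlap (log2 fold change 0.82 ± 0.21, edgeR adjusted p = 0.0226). MiR-322-5p had one of 0.73 ± 0.22 (edgeR adjusted p = 0.0372), and its groups overlapped. Its neighbors in a cluster on the X chromosome (53047997 to 53054349, GRCm38.p6, minus strand) added 1 call, miR-351-5p (0.63 ± 0.17), so that 3 of 12 tested members were called higher, where 7.69% of all tested miRNAs were, and none lower. With sex as a covariate none of the 3 calls held, at edgeR adjusted p-values of 0.0546 for miR-322-3p, 0.0651 for miR-322-5p and 0.0869 for miR-351-5p. MiR-351-5p has the seed of miR-125b-5p.

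Other abundant or strongly different miRNAs were higher too. MiR-31-5p, known from epithelium and activated T cells, ranged from 341 to 1313 CPM (median 757) in CM mice and from 199 to 444 CPM (median 266) in Ctrl mice, with overlap (log2 fold change 1.41 ± 0.31, edgeR adjusted p = 0.0107). MiR-181d-5p ranged from 846 to 1602 CPM (median 1086) against 431 to 907 CPM (median 525), and the overlap came from mouse 3349 alone (log2 fold change 1.00 ± 0.22, edgeR adjusted p = 0.0107). MiR-186-5p ranged from 4369 to 6136 CPM against 2474 to 4189 CPM without overlap, and was higher by 0.59 ± 0.14 on the log2 scale (edgeR adjusted p = 0.0169).
Less abundant calls with a larger difference were miR-215-5p at 1.38 ± 0.30, which shares a seed with miR-192-5p, miR-874-3p at 1.44 ± 0.27 and miR-5124a at 1.64 ± 0.50. The call of miR-5124a held in 4 of the 13 fits that left out a mouse, and those of miR-215-5p and miR-874-3p in all 13.

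The largest log2 fold changes rested on few reads. MiR-133a-3p, a miRNA of striated muscle, ranged from 0.240 to 20.1 CPM (median 8.89) in CM mice and from 0 to 2.45 CPM (median 0.843) in Ctrl mice, at most 10 counts in a Ctrl library (log2 fold change 3.52 ± 0.84, edgeR adjusted p = 0.016), and the lowest CM mouse lay within the Ctrl range. In recovered reads its log2 fold change was 2.16 ± 0.30 (edgeR adjusted p = 0.000521). MiR-6937-5p reached 76.5 CPM in CM mouse 3357 but no more than 7.15 CPM in the other CM mice, compared with 0.698 to 5.06 CPM in Ctrl mice (log2 fold change 3.22 ± 0.88, edgeR adjusted p = 0.0251). Of 4 tested muscle miRNAs, miR-133a-3p and miR-133b-3p (1.52 ± 0.39) were called higher, where 7.69% of all tested miRNAs were. Their sequences are nearly identical, so that reads of one may have been counted as the other. All 4 had a positive log2 fold change, with a list median of 1.96. Without mouse 3349, 3 were called higher, where 13.8% of all miRNAs were. In recovered reads miR-1a-3p (1.70 ± 0.30, edgeR adjusted p = 0.00224) and miR-499-5p (1.41 ± 0.37, adjusted p = 0.0187) were higher too. The summed level of the muscle list was 27.5 to 520.1 CPM in CM mice and 11.9 to 177 CPM in Ctrl mice.

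The most abundant miRNA lower in CM mice was miR-142a-3p, which is found across blood cells. It ranged from 12502 to 21293 CPM (median 16999.6) in CM mice and from 26508 to 37915 CPM (median 31650) in Ctrl mice. The groups did not overlap, and the log2 fold change was -0.89 ± 0.16 (edgeR adjusted p = 0.00352). The opposite arm, miR-142a-5p, was not called, at -0.42 ± 0.29 with mouse 3349 and -0.05 ± 0.13 without it. The value of that mouse, 171225 CPM, was the highest of all. In reads recovered from the authors' CPM table, described below, miR-142a-5p was at -0.85 ± 0.33 with that mouse (edgeR adjusted p = 0.0875). There miR-142a-3p was at -0.91 ± 0.16. Without mouse 3349, miR-142a-5p ranged from 42293 to 65667 CPM in the count table and from 10573 to 29030 CPM in the authors' table. The contrast between the arms thus depends on the table and is uncertain.

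Both tested members of the miR-34 family, known as targets of p53, were lower. MiR-34a-5p lay between 46.6 and 57.2 CPM (median 48.1) in CM mice and between 86.99 and 165 CPM (median 94.1) in Ctrl mice. The groups did not overlap (log2 fold change -1.11 ± 0.17, edgeR adjusted p = 0.00201). MiR-34c-5p was scarce, at 2.47 to 6.94 CPM against 9.74 to 21.8 CPM, again without overlap (log2 fold change -1.69 ± 0.27, edgeR adjusted p = 0.00208).

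A cluster of miRNAs on the X chromosome (7237683 to 7248497, GRCm38.p6, minus strand), within the chloride channel gene Clcn5, was lower in CM mice at several members. Of 8 tested miRNAs in its list, 4 were called lower, where 5.82% of all tested miRNAs were, none had a positive log2 fold change, and the list median was -0.66. Without mouse 3349 the number called rose to 6.
MiR-500-3p ranged from 115.4 to 296 CPM (median 189) in CM mice and from 370.1 to 587 CPM (median 515) in Ctrl mice, without overlap (log2 fold change -1.28 ± 0.21, edgeR adjusted p = 0.00291). MiR-362-5p ranged from 410.0 to 665 CPM (median 568) against 766 to 1237 CPM (median 895), also without overlap (log2 fold change -0.71 ± 0.15, edgeR adjusted p = 0.0107). MiR-501-5p (-0.94 ± 0.25) and miR-188-5p (-0.82 ± 0.20) were called at lower levels, whereas miR-501-3p, which has the seed of miR-500-3p, differed by -0.14 (edgeR adjusted p = 0.555).

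MiR-5121 and miR-33-5p were also lower, the latter an intronic miRNA of the sterol regulator Srebf2. MiR-5121 ranged from 27.9 to 58.4 CPM (median 33.2) in CM mice and from 66.3 to 164 CPM (median 87.6) in Ctrl mice, without overlap (log2 fold change -1.40 ± 0.24, edgeR adjusted p = 0.00347). MiR-33-5p ranged from 102.6 to 207 CPM (median 141) against 185 to 349 CPM (median 296), with overlap (log2 fold change -0.97 ± 0.19, edgeR adjusted p = 0.0069). Further calls in this direction were miR-324-5p (-0.99 ± 0.22), miR-455-5p (-1.46 ± 0.30) and the smooth muscle miRNA miR-145a-5p (-1.02 ± 0.25), each of which held in all 13 fits that left out a mouse.

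For several of the largest decreases, the single library of mouse 3349 set the size. MiR-210-3p, which responds to low oxygen, ranged from 74.2 to 107.4 CPM (median 94.5) in CM mice, from 148 to 179.9 CPM in 6 Ctrl mice, and stood at 962 CPM in mouse 3349. The groups did not overlap, but the log2 fold change was -1.55 ± 0.46 (edgeR adjusted p = 0.0395) with that mouse and -0.76 ± 0.11 (adjusted p = 0.00128) without it. MiR-3473b stood at 462 CPM in mouse 3349 and at 29.5 to 79.8 CPM in the other Ctrl mice, compared with 11.1 to 33.02 CPM in CM mice, and its log2 fold change went from -2.53 ± 0.65 (edgeR adjusted p = 0.021) to -1.46 ± 0.30 (adjusted p = 0.00489).
The same held for miR-16-1-3p (-1.40 with and -0.87 without the mouse), miR-147-3p (-1.41 and -0.98), a miRNA induced by inflammatory signals, and miR-345-5p (-1.27 and -0.88). All 5 were called either way.

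**Figure D2:**
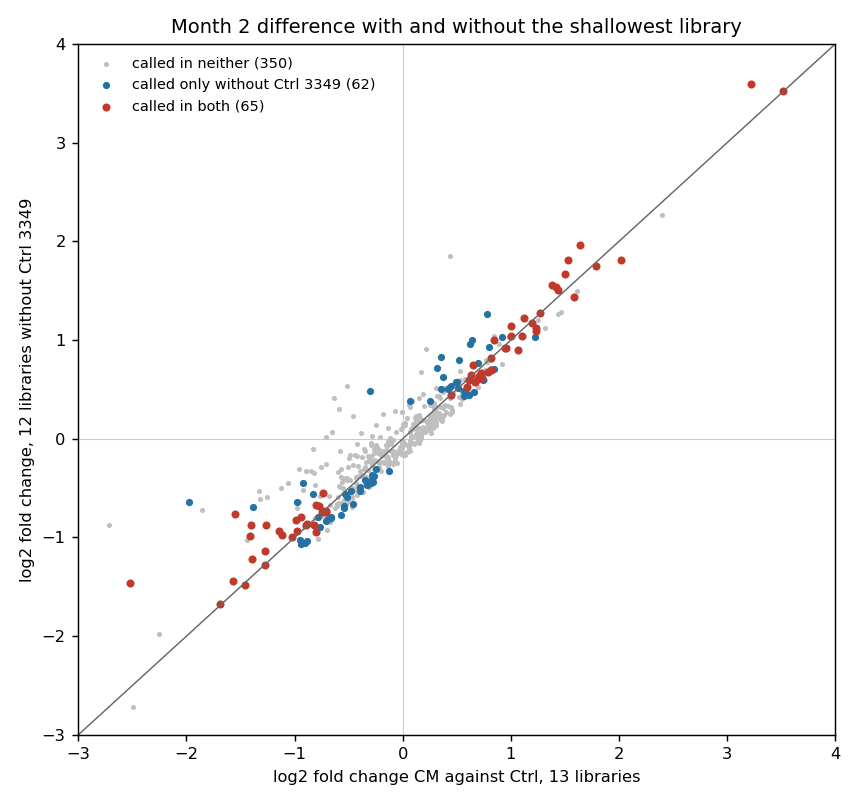
Log2 fold change of CM against Ctrl for each tested miRNA in all 13 libraries (x axis) and in the 12 libraries without Ctrl mouse 3349 (y axis); the line marks equality. The 65 miRNAs called in both fits keep their side of 0, a further 62 are called only without that mouse, and miR-3473b and miR-210-3p lie far above the line.

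Leaving out mouse 3349 added 62 calls, 29 higher and 33 lower. Among abundant miRNAs, miR-191-5p ranged from 27305 to 34875 CPM in CM mice and from 19819 to 25925 CPM in the 6 other Ctrl mice, with mouse 3349 at 8672 CPM. Its groups did not overlap with or without that mouse, yet it was called only without it (log2 fold change 0.43 ± 0.10, edgeR adjusted p = 0.00715, against 0.57 ± 0.21 and adjusted p = 0.081). MiR-26b-5p (0.44 ± 0.13), miR-328-3p (0.62 ± 0.14), miR-423-3p (0.57 ± 0.16) and the red cell miRNA miR-486b-5p (1.03 ± 0.30) were added in the same direction. The last may share reads with miR-486a-5p, which was called with all 13 libraries.
Added as lower were miR-340-5p (-0.78 ± 0.17), miR-101a-3p (-0.70 ± 0.20), its close relative miR-101b-3p (-0.53 ± 0.15), miR-30e-5p (-0.41 ± 0.10) and miR-20a-5p (-0.32 ± 0.10). In the growth-promoting miR-17-92 cluster and its paralogs, the calls went from 1 higher and 1 lower of 23 tested to 2 higher and 9 lower, in a fit that called 13.8% of all miRNAs higher and 12.8% lower. One of the 62, let-7b-3p, singled out after its values were seen, changed sign, from -0.30 ± 0.47 to 0.48 ± 0.15, and its level in mouse 3349 was 78.9 CPM against 10.3 to 22.1 CPM in all the others.

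**Figure D3:**
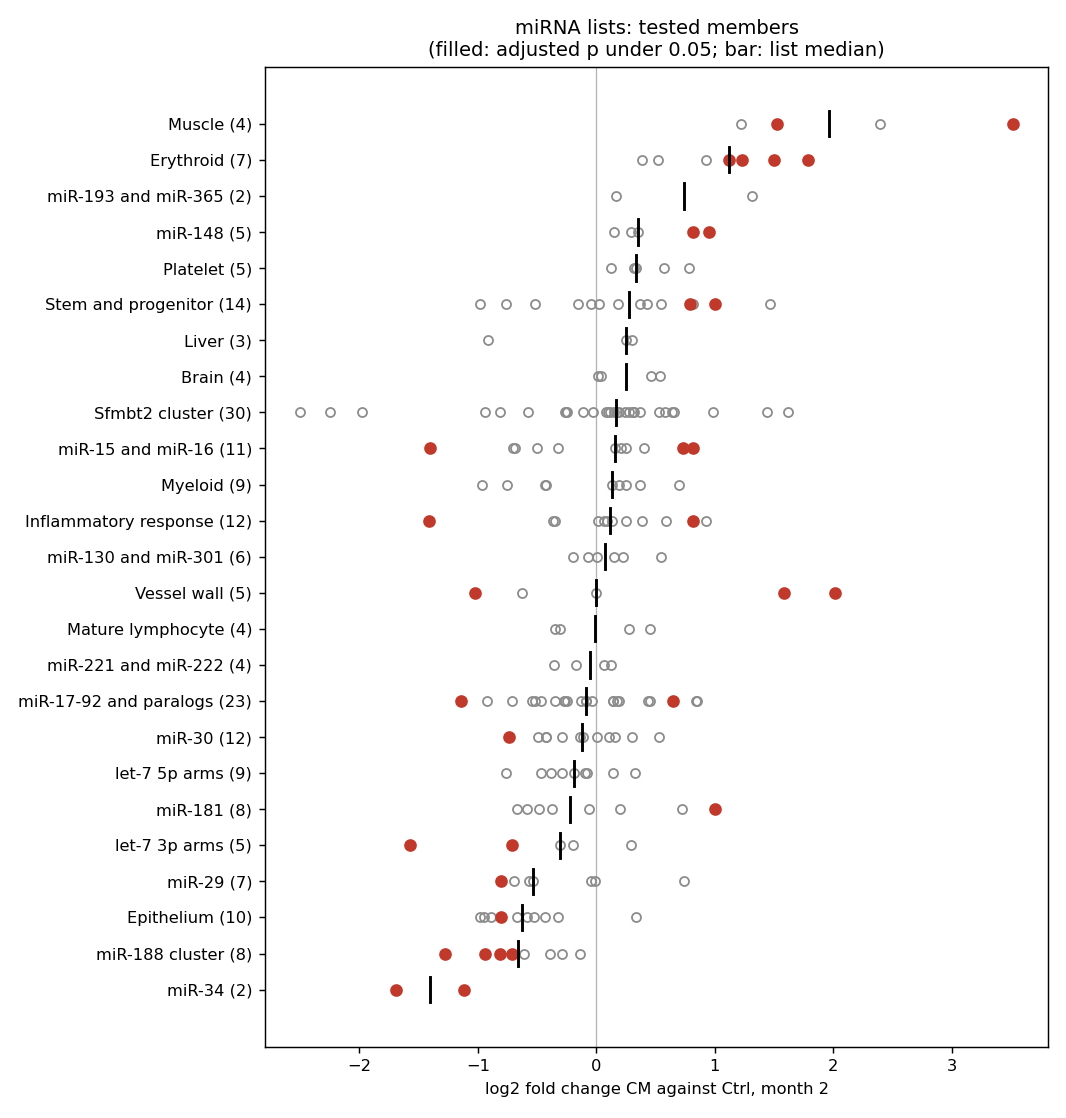
Log2 fold change of CM against Ctrl at month 2 for the tested members of each miRNA list, with the number tested in parentheses; filled points passed an adjusted p of 0.05 and bars are list medians. Calls in the erythroid and muscle lists lie to the right and those of the miR-188 cluster, let-7 3p arms and miR-34 lists to the left, while the myeloid and lymphocyte lists hold no filled point.

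Lists of mature cell types and of inflammation follow, beside the 13.5% of all miRNAs called. With all 13 libraries, none of 9 myeloid, 4 mature lymphocyte, 5 platelet, 3 liver or 4 brain miRNAs was called at an edgeR adjusted p under 0.05, and the same held without mouse 3349. In recovered reads miR-199a-5p of the platelet list was called higher (1.11 ± 0.30, edgeR adjusted p = 0.0219). The myeloid miR-24-3p and the brain miR-128-3p have 2 hairpins, and their counts are uncertain, as described below. The list medians were 0.13 for myeloid, -0.01 for lymphocyte, 0.33 for platelet, 0.25 for liver and 0.25 for brain miRNAs. MiR-223-3p, the defining miRNA of granulocytes and monocytes, had a median of 10367 CPM in CM mice and 6950.1 CPM in Ctrl mice (log2 fold change 0.70 ± 0.32, edgeR adjusted p = 0.155), and miR-150-5p, that of mature lymphocytes, 45481 against 52062 CPM (-0.30 ± 0.28, adjusted p = 0.476). In fits that left out 1 mouse, miR-150-5p was at -0.45 to -0.10. The summed lymphocyte list stood at 20895 CPM in mouse 3349. It was at 57223 to 86765 CPM in the other Ctrl mice and 29071 to 61010 CPM in CM mice, with a small overlap.
Of 12 inflammatory miRNAs, miR-132-5p was called higher (0.82 ± 0.25) and miR-147-3p lower, whereas miR-155-5p (0.06) and miR-21a-5p (0.01) differed by less than their standard errors of 0.33 and 0.26. The level of miR-155-5p was 626 CPM in mouse 3349 and 3193 to 5427 CPM in the other Ctrl mice. Without mouse 3349 the list held 1 call higher and 2 lower. With sex as a covariate miR-132-5p was not called (edgeR adjusted p = 0.0691). The vessel wall list, which holds miR-126a, had 2 calls higher and 1 lower of 5, since miR-145a-5p went the other way and miR-143-3p, with -0.63 (edgeR adjusted p = 0.146), did not pass. In the epithelial list 1 of 10, miR-141-3p, was called lower (-0.80 ± 0.25), and 9 of 10 had a negative log2 fold change. With sex as a covariate miR-141-3p was not called (-0.58, edgeR adjusted p = 0.158). It was at -0.19 in females alone and -0.89 in males alone.
In the let-7 lists, which include miR-98, none of 9 tested 5p arms was called by edgeR, whereas without mouse 3349 let-7e-5p and miR-98-5p (-0.45, edgeR adjusted p = 0.0053) were lower. Of 5 tested 3p arms in the list, let-7g-3p (-1.57 ± 0.39) and let-7i-3p (-0.71 ± 0.19) were lower. The 3p arms let-7a-1-3p, let-7f-1-3p and let-7f-2-3p were tested outside that list and not called, and without mouse 3349 let-7a-1-3p was higher (0.72, edgeR adjusted p = 0.0443). The miR-29, miR-30 and miR-181 lists held 1 call each, miR-29a-5p (-0.81 ± 0.21), miR-30d-3p (-0.74 ± 0.22) and miR-181d-5p. In recovered reads miR-30d-3p and miR-181d-5p were called too, but miR-29a-5p was not (-0.56 ± 0.28, edgeR adjusted p = 0.161). Members called lower there included miR-29c-5p (-1.11 ± 0.20, edgeR adjusted p = 0.00281) and miR-181a-1-3p (-0.55 ± 0.15, adjusted p = 0.0236). Without mouse 3349 the calls were 3 lower in the miR-29 list, 2 lower in the miR-30 list, and 1 higher and 2 lower in the miR-181 list, and the epithelial list gained a second, miR-200c-3p (-1.04, edgeR adjusted p = 0.0113). No member was called of 4 in the miR-221 and miR-222 list, of 6 in the miR-130 and miR-301 list, of 2 in the miR-193 and miR-365 list and of 30 in the Sfmbt2 cluster list, whose members are hard to separate by sequence. Without mouse 3349 the Sfmbt2 list held 2 calls higher and 2 lower, among them miR-466d-3p (0.48) and miR-466i-5p (-0.65), and the other 3 lists still none. None of 95 miRNAs of the imprinted Dlk1-Dio3 cluster passed the count filter.

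In the count table and the authors' CPM table of the same libraries, the spread between libraries differed for abundant miRNAs made from more than 1 hairpin. For the 79 tested miRNAs with a mean of at least 1000 CPM, the highest and lowest of the 12 libraries other than mouse 3349 were compared. In the count table, 11 of 12 miRNAs with 2 hairpins in RefSeq varied over 5-fold, compared with 2 of 56 that had 1 hairpin. In the authors' table none of those 12 did, and 1 of the 56 did.
MiR-16-5p ranged from 837 to 33578 CPM in the count table and from 31930 to 41586 CPM in the authors' table, and miR-26a-5p from 1845 to 101039 CPM and from 65687 to 119058 CPM. Let-7f-5p (27.3-fold against 1.74-fold) and miR-181a-5p (14.8-fold against 1.90-fold) behaved alike.

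**Figure D4:**
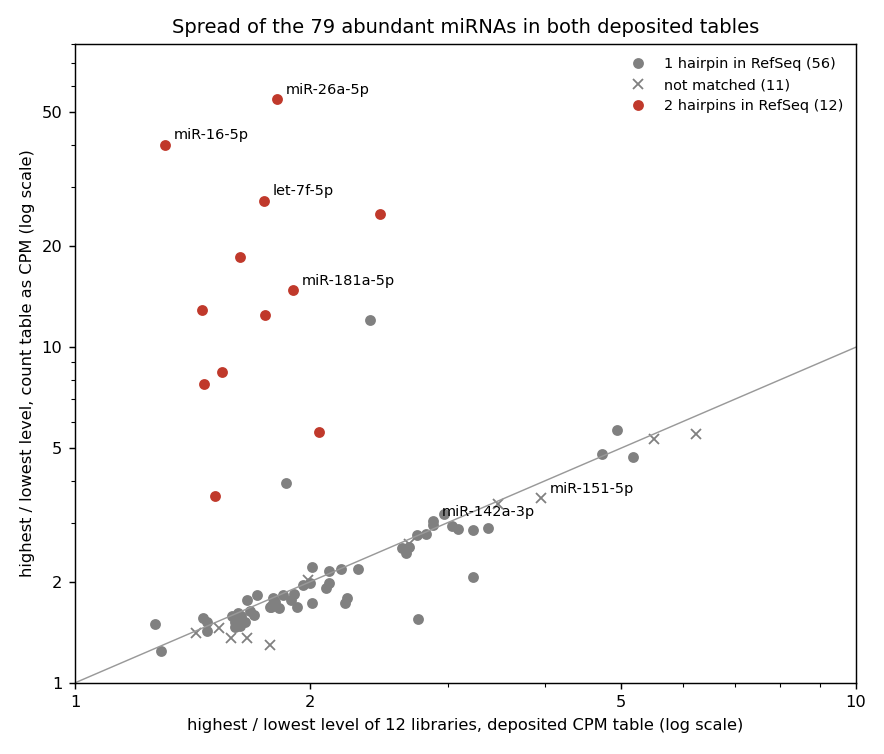
Ratio of the highest to the lowest level among 12 month 2 libraries (without Ctrl mouse 3349) for 79 abundant miRNAs, in the authors' CPM table (x axis) and in the count table expressed as CPM (y axis), both on log axes; the line marks equality. Of the 12 miRNAs with 2 RefSeq hairpins (red), 11 stand above 5 on the y axis and none on the x axis, while miR-151-5p and miR-142a-3p lie close to the line.

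Whole reads could be recovered from the authors' table (100% of its values above 0 lay within 0.01 of a whole multiple), so the edgeR test was run on these reads too, a choice made after the data were seen. It called 22.2% of 481 miRNAs, 53 higher and 54 lower. Of the 65 calls, 64 were tested there, all 64 with the same sign, and 60 were called. MiR-126a-3p (1.62 ± 0.27, edgeR adjusted p = 0.00212), miR-151-5p (1.27 ± 0.18, adjusted p = 0.000521) and miR-142a-3p (-0.91 ± 0.16, adjusted p = 0.00212) were within 0.04 of their values above.
MiR-26a-5p, in contrast, differed by 0.44 on the log2 scale (edgeR adjusted p = 0.689) in the count table and 0.74 (adjusted p = 0.0455) in the recovered reads, and miR-181a-5p went from 0.72 (adjusted p = 0.505) to -0.51 (adjusted p = 0.0281). The values of miRNAs with several hairpins are therefore uncertain in the count table.

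**Figure D5:**
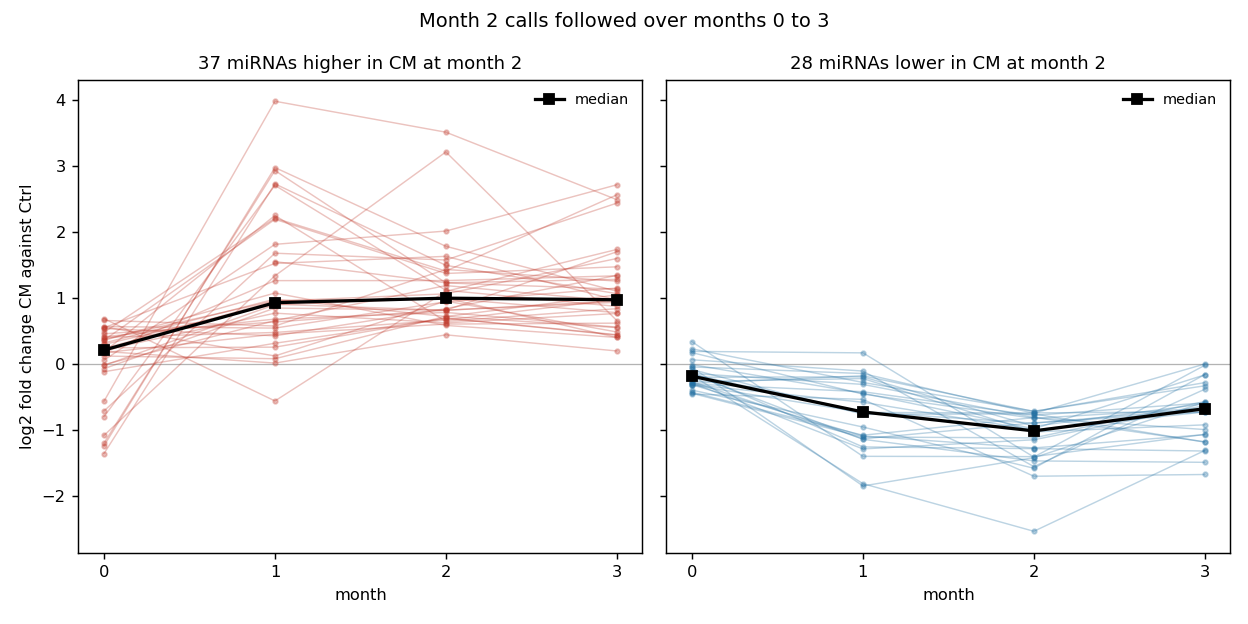
Log2 fold change of CM against Ctrl at months 0 to 3 for the 37 miRNAs called higher (left) and the 28 called lower (right) at month 2; thin lines are miRNAs, and black squares are medians over those tested in that month. The medians at month 0 are 0.22 and -0.18, compared with 0.02 over all miRNAs tested in that month, and they lie further from 0 at months 1, 2 and 3.

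The same mice were sampled at other months in separate libraries, together with 1 further CM mouse, so that months 0, 1 and 3 and the interactions use 7 CM and 7 Ctrl libraries for each of those months. Before induction, at month 0, 1 of 478 miRNAs was called (0.209%) and it was not among the 65, while 62 (13.0%) had an unadjusted p under 0.05. Many month 2 calls already leaned to their later side then. Of those called higher and tested at month 0, 24 of 35 were above 0. Of those called lower, 23 of 28 were below 0. At month 1, 130 of 472 were called (27.5%), and 37 of them were also called at month 2, all with the same sign. These are 56.9% of the month 2 calls and 28.5% of those at month 1. At month 3, 100 of 455 were called (22.0%), with 38 shared and of the same sign, 58.5% of the month 2 and 38.0% of the month 3 calls.
Over months 0 to 3 in order, the log2 fold change of miR-126a-3p was -0.71, 1.68, 1.58 and 2.44, that of miR-151-5p was 0.17, 1.27, 1.27 and 1.34, and that of miR-142a-3p was -0.15, -0.72, -0.89 and -0.67. The month 1 value of miR-142a-3p did not pass (edgeR adjusted p = 0.0556). MiR-210-3p, by comparison, had a log2 fold change of -0.10 in the first month after induction (edgeR adjusted p = 0.726) and miR-362-5p one of -0.27 (adjusted p = 0.43).

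Whether the difference between CM and Ctrl mice changed between months was tested as an interaction. From month 0 to month 2 the difference changed at 19 of 533 miRNAs (3.56%), 9 toward higher (1.69%) and 10 toward lower levels (1.88%) in CM mice. With mouse as a replicate block edgeR called 0 such changes (85 at an unadjusted p under 0.05). Changes toward higher levels with no block included miR-126a-3p (2.26 ± 0.49, edgeR adjusted p = 0.0263, 0.0737 with the block), miR-126a-5p (1.94 ± 0.49, adjusted p = 0.0352) and miR-151-3p (1.17 ± 0.21, adjusted p = 0.00358). Toward lower levels they included miR-34c-5p (-1.27 ± 0.36, edgeR adjusted p = 0.0478), miR-500-3p (-1.20 ± 0.34, adjusted p = 0.0478) and miR-142a-3p (-0.78 ± 0.20, adjusted p = 0.0356). Without mouse 3349 the interactions of miR-34c-5p (edgeR adjusted p = 0.0531) and miR-500-3p (adjusted p = 0.0626) no longer passed.
Between months 1 and 2 no change of the difference was called at 527 miRNAs by edgeR (77, or 14.6%, at an unadjusted p under 0.05), and between months 2 and 3 none at 519 (38, or 7.32%, at an unadjusted p under 0.05).

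The samples were not balanced in sex or in the number that follows the letter G in their names, whose meaning is not given. CM mice were 4 females and 2 males, and Ctrl mice 2 females and 5 males. With sex as a covariate 63 miRNAs were called, 27 higher and 36 lower. Of the 65 calls 50 were among them, and no call of the 65 changed sign in females alone or males alone. Besides those given above, calls lost with sex included miR-188-5p (edgeR adjusted p = 0.0538), miR-5124a (0.0651) and miR-6937-5p (0.0977). Both groups occurred together at 2 of 7 G numbers, G3 with 1 mouse each and G7 with 1 CM and 2 Ctrl mice. Of the 65 calls, 64 and 62 had their sign there, 61 in both, compared with 280 of all 481 tested (58.2%). These mice were among the libraries from which the calls were chosen. The agreement of sign was therefore partly set beforehand and is not a test. The same holds for the signs in females or males alone. With G number as a covariate 0 miRNAs were called by edgeR (86 at an unadjusted p under 0.05), so that beyond these 5 mice G number and group cannot be told apart. MiR-126a-3p differed by 2.15 at G3 and 1.43 at G7 on the log2 scale, miR-151-5p by 1.76 and 1.13, and miR-142a-3p by -1.60 and -0.60.

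Among hairpins with both arms in RefSeq, the arms were called together in few cases. Of 98 hairpins whose arms were both tested and both found in RefSeq, both arms were called at 2, miR-322 and miR-3068, and both times in the same direction. MiR-126a, miR-151 and miR-486a also had both arms called higher. They lacked a RefSeq entry for 1 or both arms and are not among the 98. With sex as a covariate neither arm of miR-322 was called. Of miR-3068 the 5p arm was called then (edgeR adjusted p = 0.0387) but the 3p arm was not (adjusted p = 0.0800). In recovered reads miR-3068-3p was not called either (0.52 ± 0.19, edgeR adjusted p = 0.0670). At 26 hairpins 1 arm was called, and the other arm had the same sign at 17, compared with 54 of all 98 hairpins. In the miR-144 hairpin the 5p arm was called and the 3p arm had 0.38 (edgeR adjusted p = 0.501), and in the miR-340 hairpin the 3p arm was higher (1.07 ± 0.32) while the 5p arm had -0.57 ± 0.38. Sequences were found for 400 of the 481 tested and 52 of the 65 called miRNAs. The arms of miR-151 and miR-486, miR-126a-5p and miR-34c-5p were among those not matched.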

How the data were processed

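Mature miRNAs were measured by small RNA sequencing of PBMC. The authors' methods state adapter trimming with cutadapt, alignment to mm9 with Bowtie and counting of miRBase miRNAs; the processing notes name GRCm38 instead, so the build is unsettled. The deposited counts are whole reads per mature miRNA made with mirTOP, and how reads with several matches were counted is not given in the sources used here. The authors' CPM table is a TMM-scaled signal, and whole reads were recovered from it. Of the count columns, 55 of months 0 to 3 were used and 74 were not used here.

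Counts were tested with edgeR 4.0.16 (R 4.3.3) using its quasi-likelihood test, TMM and filterByExpr, with an adjusted p threshold of 0.05. SE is the log2 fold change divided by the square root of F. CPM are TMM-scaled. Alternatives used DESeq2 1.42.0 and limma 3.58.1. The test was checked on simulated data. Within a month, replicates are separate mice, and p-values measure the spread between them. The interaction fits with no block treated libraries of the same mouse from different months as separate replicates, so their p-values ignore this pairing. Same-numbered libraries of months 0 and 2 came from the same mouse, and their deviations correlated at r = -0.143 to 0.293 over 13 pairs. Depth differed by 0.16 on the log2 scale between groups (exact permutation test, two-sided, p = 0.706). The mean number of detected miRNAs was 1012 in CM and 981.7 in Ctrl mice (same test, p = 0.0606).

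The comparison, lists and alternatives were chosen with earlier results of these data known. Named miRNAs were miR-126a, the largest and most abundant calls, the leading members of each list, the calls that held without each mouse, those added without Ctrl mouse 3349, and interaction calls; miR-151-3p, miR-152-3p, miR-188-5p, miR-322-5p, miR-3068, miR-340-3p, miR-142a-5p and the other uncalled miRNAs were added after their values were seen.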

Additional observations from a re-analysis of the deposited data

Results flagged for a closer look

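Within groups, the highest or lowest mouse was checked against the others by Dixon's criterion over 142 sets of values, and 30 (21.1%) passed. Chance alone flags about 1 in 20 such sets, but the sets were those of the named miRNAs, some of which were named because leaving out Ctrl mouse 3349 changed their call, so the share is not a test. Of the 30, 22 belonged to Ctrl mouse 3349, whose total of 1792809 counts was also apart from the other Ctrl libraries. Its levels were lowest for miR-126a-3p (35.0 CPM), miR-126a-5p (2.95), miR-467e-5p (50.2), miR-26b-5p (6656), miR-191-5p (8672), miR-30e-5p (11376) and miR-20a-5p (813). They were highest for miR-210-3p (962 CPM), miR-3473b (462), miR-345-5p (250.1), miR-34a-5p (165), miR-5121 (164), miR-16-1-3p (152), miR-324-5p (111.3), miR-147-3p (59.5), miR-30d-3p (38.0), miR-215-5p (17.3), miR-19b-1-5p (12.2), miR-5120 (7.59) and miR-6937-5p (5.06), as well as for miR-328-3p (3513). In the authors' CPM table too, this library was the highest at 95 and the lowest at 178 of 481 miRNAs.

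Single mice stood apart elsewhere. CM mouse 3357 was highest for miR-6937-5p (76.5 CPM) and miR-34a-5p (57.2 CPM), CM mouse 3336 for miR-5121 (58.4 CPM) and miR-101a-3p (8058 CPM), CM mouse 3338 for miR-322-5p (898 CPM), CM mouse 3341 for miR-7219-3p (9.55 CPM), CM mouse 3370 for miR-328-3p (3067 CPM), and Ctrl mouse 3339 for miR-182-5p (893 CPM).

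The difference between CM and Ctrl mice changed from month 0 to month 2 by the interaction test with no block, and no change was called with mouse as a block. Toward higher levels in CM mice the changes on the log2 scale were 4.20 for miR-6937-5p, 4.05 for miR-133a-3p, 2.97 for miR-486a-3p, 2.26 for miR-126a-3p, 1.94 for miR-126a-5p, 1.07 for miR-151-5p and 1.00 for miR-196b-5p. Toward lower levels they were -6.06 for miR-669a-5p, -1.77 for miR-669a-3-3p, -1.64 for miR-16-1-3p, -1.27 for miR-34c-5p, -1.20 for miR-500-3p, -1.01 for miR-33-5p, -0.97 for miR-362-5p and -0.78 for miR-142a-3p. Without Ctrl mouse 3349 the interactions of miR-34c-5p, miR-33-5p and miR-500-3p were not called. MiR-669a-5p belongs to a family of near-identical copies, and its interaction was -3.13 with the block.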

How the results depend on the processing

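The share of tested miRNAs called at month 2, 13.5% (65), became 9.11% to 26.6% when 1 mouse was left out, with the highest share without Ctrl mouse 3349. It was 21.4% with DESeq2 (54 higher, 49 lower), 2.63% with no count filter (42), 32.8% with limma-voom sample quality weights (158), 0.187% in females alone (1) and 1.34% in males alone (7), and 0 with G number as a covariate, with or without mouse 3349 (86 and 87 at an unadjusted p under 0.05). On reads recovered from the authors' CPM, an alternative chosen after seeing the data, it was 22.2% (53 higher, 54 lower), and 33.6% (160) without that mouse. Raw library sizes (65), a minimum of 10 counts (66), sex (63), sex without mouse 3349 (74), CW Ctrl mice alone (49), the authors' CPM with limma (78 and 85) and library sizes without the 5 most abundant miRNAs (76) moved it less. No called miRNA changed sign in 30 settings, and 6 kept their call in 27 of them (miR-126a-3p, miR-126a-5p, miR-151-3p, miR-151-5p, miR-34c-5p and miR-5121). With mouse as a replicate block the 19 interaction calls from month 0 to month 2 became 0; the block changed no other call. Over the 70 named miRNAs and these settings, 1648 of 2095 values kept their direction and side of the threshold, 363 lost the call, 53 gained it and 31 changed sign. The sign changes concerned 9 uncalled miRNAs. MiR-128-3p (-0.13 to 0.32 without single mice) was -0.14 with quality weights, -0.14 with sex as a covariate and -0.31 with sex and no mouse 3349, -0.74 and -0.75 with G number, -0.36 in females, and -0.026 and -0.13 in recovered reads. MiR-20a-5p (-0.32 to 0.020 without single mice) was 0.089 with sex, 0.65 in females, and 0.20 in the authors' CPM with either pseudocount. MiR-182-5p was -0.059 with sex and no mouse 3349, -0.048 against CW Ctrl mice and -0.41 in males. MiR-669a-5p was 0.25 against CW Ctrl mice, 0.14 in the authors' CPM with either pseudocount, and 0.087 and 0.0077 in recovered reads. In females alone miR-150-5p was 0.23, let-7i-5p 0.064, miR-328-3p -0.27, miR-30e-5p 0.10 and miR-340-5p 0.044. The cause of these changes was not tested. Depth limited miRNAs with few reads: 15 of the 65 calls had a mean under 10 CPM, and 3 counts were worth 0.506 to 1.27 CPM.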

Other observations

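In the count table the level of miRNAs with 2 hairpins fell into high and low libraries in both groups. MiR-16-5p stood at 28040.5 to 33578 CPM in 5 Ctrl mice and CM mice 3336 and 3341, at 837 to 6230 CPM in the other 4 CM mice and Ctrl mouse 3346, and at 130.3 CPM in Ctrl mouse 3349. The high libraries were partly others for miR-26a-5p. CM mouse 3341 had 33578 CPM of miR-16-5p and 99377 CPM of miR-26a-5p, CM mouse 3338 had 5779 and 101039 CPM, and Ctrl mouse 3339 had 31002 and 1845 CPM. Over the 12 libraries without Ctrl mouse 3349, miR-7a-5p (18.5-fold between lowest and highest), miR-30c-5p (12.9-fold), miR-103-3p (12.4-fold), miR-128-3p (8.45-fold), miR-24-3p (7.76-fold) and let-7c-5p (5.59-fold) varied likewise, and the same miRNAs varied by 1.46-fold to 2.05-fold in the authors' CPM. Let-7a-5p, with 1 hairpin in RefSeq's table, varied 12.1-fold against 2.39-fold.

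MiR-5099 and miR-3963 differed between the tables in level. Over the same 12 libraries miR-5099 ranged from 17858 to 94780.2 CPM in the count table and from 61.4 to 339 CPM in the authors' CPM, and miR-3963 from 1173 to 4622 CPM and from 0.209 to 1.86 CPM.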
